A study of Homo sapiens with 4 samples.

Results

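The genes described here are the nuclear-encoded subunits of the mitochondrial respiratory chain and ATP synthase, together with the assembly factors, isoforms and other genes that carry the same names. They were taken by gene name, as every gene on the array whose name starts with NDUFA, NDUFB, NDUFC, NDUFS, NDUFV, UQCR, COX4 to COX8 or ATP5, or is SDHA, SDHB, SDHC, SDHD or CYC1. The rule gave 96 genes of 29123 gene names on the array, with 145 probes, and all 96 were among the 27225 genes tested. By textbook role, 76 of them are structural subunits, 8 are assembly factors, 6 are tissue-specific or condition-specific isoforms, 4 are pseudogenes or antisense genes, and 2 are ATP5S and ATP5SL, which are not subunits of ATP synthase in spite of their names. The cells were A2780s, an established line from a human ovarian adenocarcinoma. Each of 4 two-colour arrays compared 1 knockout clone with Ctrl, a mock-transfected A2780s clone described as the corresponding control, and whether all 4 arrays used the same Ctrl RNA is not given in the sources used here. The GALNT3 KO group held 2 clones edited with CRISPR-Cas9 in GALNT3, an enzyme that starts O-glycosylation of proteins. The GALNT3/T6 KO group held 2 clones made from GALNT3 KO cells with an shRNA against GALNT6, a second enzyme of that family. The study asked how the loss of 1 or both enzymes changes gene expression in ovarian cancer cells. Because each replicate was a clone, p-values measured the spread between clones, together with any difference in Ctrl between arrays. The effect of the GALNT6 shRNA cannot be told apart from that of choosing further clones. In RNA from whole cultures, fewer cells of a kind and less RNA per cell cannot be told apart.

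Respiration passes electrons from NADH through complex I (NADH dehydrogenase), or from succinate through complex II (succinate dehydrogenase), to coenzyme Q. Complex III (cytochrome bc1) hands them to cytochrome c, and complex IV (cytochrome c oxidase) hands them to oxygen. Complexes I, III and IV pump protons, and complex V (ATP synthase) uses the gradient to make ATP. Most subunits are encoded in the nucleus, and a small set of core subunits of complexes I, III, IV and V is encoded in mitochondrial DNA. The catalytic core subunits carry the cofactors and the active sites, while the accessory subunits surround them and are needed for assembly or stability.

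On each array 86.9% to 93.8% of the spots that were not controls were well above background in a channel. Among the members, 94 of 96 were well above background in both channels of all 4 arrays, the exceptions being COX7B2 and NDUFA4L2. GALNT3 itself, on the GALNT3 KO arrays, did not stand well above background, in Ctrl or in the knockout channel. In the GALNT3/T6 KO group it did so in both channels of both arrays, Ctrl included. Whether the Ctrl RNA differed between the 2 groups was not tested. On both arrays of the GALNT3/T6 KO group its log2 ratio was 4.80 and 5.08, higher than Ctrl, which goes against the label, so the pair is called here the GALNT3/T6-labelled arrays. Directions follow the labels, which give Cy3 to Ctrl and Cy5 to the knockout on all 4 arrays. With that same dye order throughout, an effect of the dye on a gene cannot be told apart from a difference from Ctrl. This includes genes that lay on the same side on all 4 arrays. The study's methods speak of reverse-color labelling, but the labels show no array with its dyes swapped. Whether channels or samples of this pair were exchanged was not tested, and an exchange would turn every higher or lower call on it, the rank of its largest rises and falls included, and change the differences between the groups. GALNT6 was lower in both groups, with means of -0.42 and -0.67. For its GALNT3 KO clones the study reported more GALNT6 protein by Western blot, so the RNA read here went the other way. Across all genes tested, the correlation was 0.84 between the 2 GALNT3 KO arrays and 0.92 between the 2 GALNT3/T6-labelled arrays. The epithelial markers set for the check of the label were well above background in Ctrl on all 4 arrays for 8 of 8 genes, but so were 5 of 5 blood cell markers, so this flag did not test the label. ACTB, a common reference gene, lay at -0.69 and 0.71 on the 2 GALNT3/T6-labelled arrays, and GAPDH at -0.12 and 1.14.

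The promoters of these subunits are known as targets of NRF-1, of ETS family factors such as GABP and of YY1, so their sequences are shown first. RefSeq promoters (GRCh38.p14, 250 bases before to 50 bases after a transcript start) were found by current symbol for 63 of the 76 structural subunits. Each was searched on both strands for the letters GCATGCGC (NRF-1), CCGGAAG (ETS) and AAGATGGC (YY1). The NRF-1 letters stood in a promoter of 14 of 63 subunits (22.2%) and in 3.68% of the 27305 genes with a promoter. For the ETS letters the shares were 20 of 63 (31.7%) and 12.2%, and for the YY1 letters 12 of 63 (19.0%) and 3.52%. Between subunits called higher and lower on the GALNT3/T6-labelled arrays the counts were close, at 4 and 3 of 18 each for NRF-1, 5 and 5 of 18 for ETS, and 3 and 5 of 18 for YY1. The stretches below are the 150 bases just before the start of the higher SDHD and COX8A and the lower ATP5C1 and UQCR11, with those letters on either strand in capitals. These 2 called subunits of each direction were picked because their stretch holds such letters, so they do not show how common the letters are. UQCR11 is lower by its brightest probe, and its second probe read 0.44. NRF-1 sites that overlap on both strands are written as 1 run.
SDHD (chr11:112086723-112086872, + strand): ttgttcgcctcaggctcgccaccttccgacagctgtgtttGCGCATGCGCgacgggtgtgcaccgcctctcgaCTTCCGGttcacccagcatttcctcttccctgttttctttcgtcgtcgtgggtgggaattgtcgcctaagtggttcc
COX8A (chr11:63974470-63974619, + strand): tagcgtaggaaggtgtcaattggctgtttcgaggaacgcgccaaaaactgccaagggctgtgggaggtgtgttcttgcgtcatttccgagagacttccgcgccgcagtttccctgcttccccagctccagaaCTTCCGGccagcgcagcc
ATP5C1 (chr10:7788027-7788176, + strand): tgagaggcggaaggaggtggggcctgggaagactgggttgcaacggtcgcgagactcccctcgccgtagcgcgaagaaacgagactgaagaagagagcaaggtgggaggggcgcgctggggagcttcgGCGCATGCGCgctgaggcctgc
UQCR11 (chr19:1605463-1605612, - strand): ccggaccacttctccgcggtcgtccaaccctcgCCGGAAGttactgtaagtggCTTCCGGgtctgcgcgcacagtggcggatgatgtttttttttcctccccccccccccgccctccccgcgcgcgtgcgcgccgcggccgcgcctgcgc
The promoter of SDHD held the NRF-1 and the ETS letters, and that of ATP5C1 the NRF-1 letters, while those of COX8A and UQCR11 held the ETS letters. A match of letters is a description of the sequence and was not tested as a binding site.

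In the GALNT3 KO clones few members were called. Of 96 members, 2 were called higher, ATP5G2 and COX4I2, and 5 were called lower, NDUFA8, NDUFC2, NDUFS6, SDHB and ATP5H. Over all genes tested, 4.68% were called higher and 6.34% lower, so the share of members called higher lay below that of all genes and the share called lower was close to it. The median log2 ratio of the members was 0.09, with 0.01 and 0.17 on the 2 arrays, and that of all genes was 0.02. A gene was called where its p in limma, adjusted by Benjamini-Hochberg over all genes, was 0.05 or less. These calls depended on the arrays that set the spread. With the spread of the GALNT3 KO arrays alone, 22 members were called higher and 17 lower, beside 16.9% and 17.9% of all genes. With the clone number as a term of the fit 0 were called in each direction, beside 0.11% higher and 0.19% lower of all genes. Agilent's own log ratios gave 0 higher and 1 (NDUFA8) lower, beside 0.72% and 1.44% of all genes. By unadjusted p in limma, 28 members were at 0.05 or less, beside 9676 of all 27225 genes.

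On the GALNT3/T6-labelled arrays the calls split in both directions. Of 96 members, 24 were called higher and 27 lower, beside 24.8% higher and 23.1% lower among all genes tested, so the members were called about as often as other genes. Their median log2 ratio was 0.07, against 0.03 for all genes. The medians of the 2 arrays lay on opposite sides of 0, at 0.23 for replicate 1 and -0.17 for replicate 2. Of the 76 structural subunits, 22 were called higher and 23 lower, and 12 of the 21 core subunits were among these 45. With the spread of the GALNT3/T6-labelled arrays alone, 11 members were called higher and 18 lower, beside 14.7% and 15.9% of all genes. Agilent's own log ratios gave 12 and 29, beside 17.5% and 23.1% of all genes.

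Between the groups, 9 members were higher and 12 were lower on the GALNT3/T6-labelled arrays than on the GALNT3 KO arrays. Over all genes tested, 11.8% were called higher and 11.8% lower. Both groups were read against Ctrl clones, so the comparison uses the difference of their log2 ratios. Median centring in place of loess gave 14 and 6, beside 10.2% and 8.67% of all genes. With 1 array left out at a time, the median difference of the members ran from -0.19 to 0.07.

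**Figure D1:**
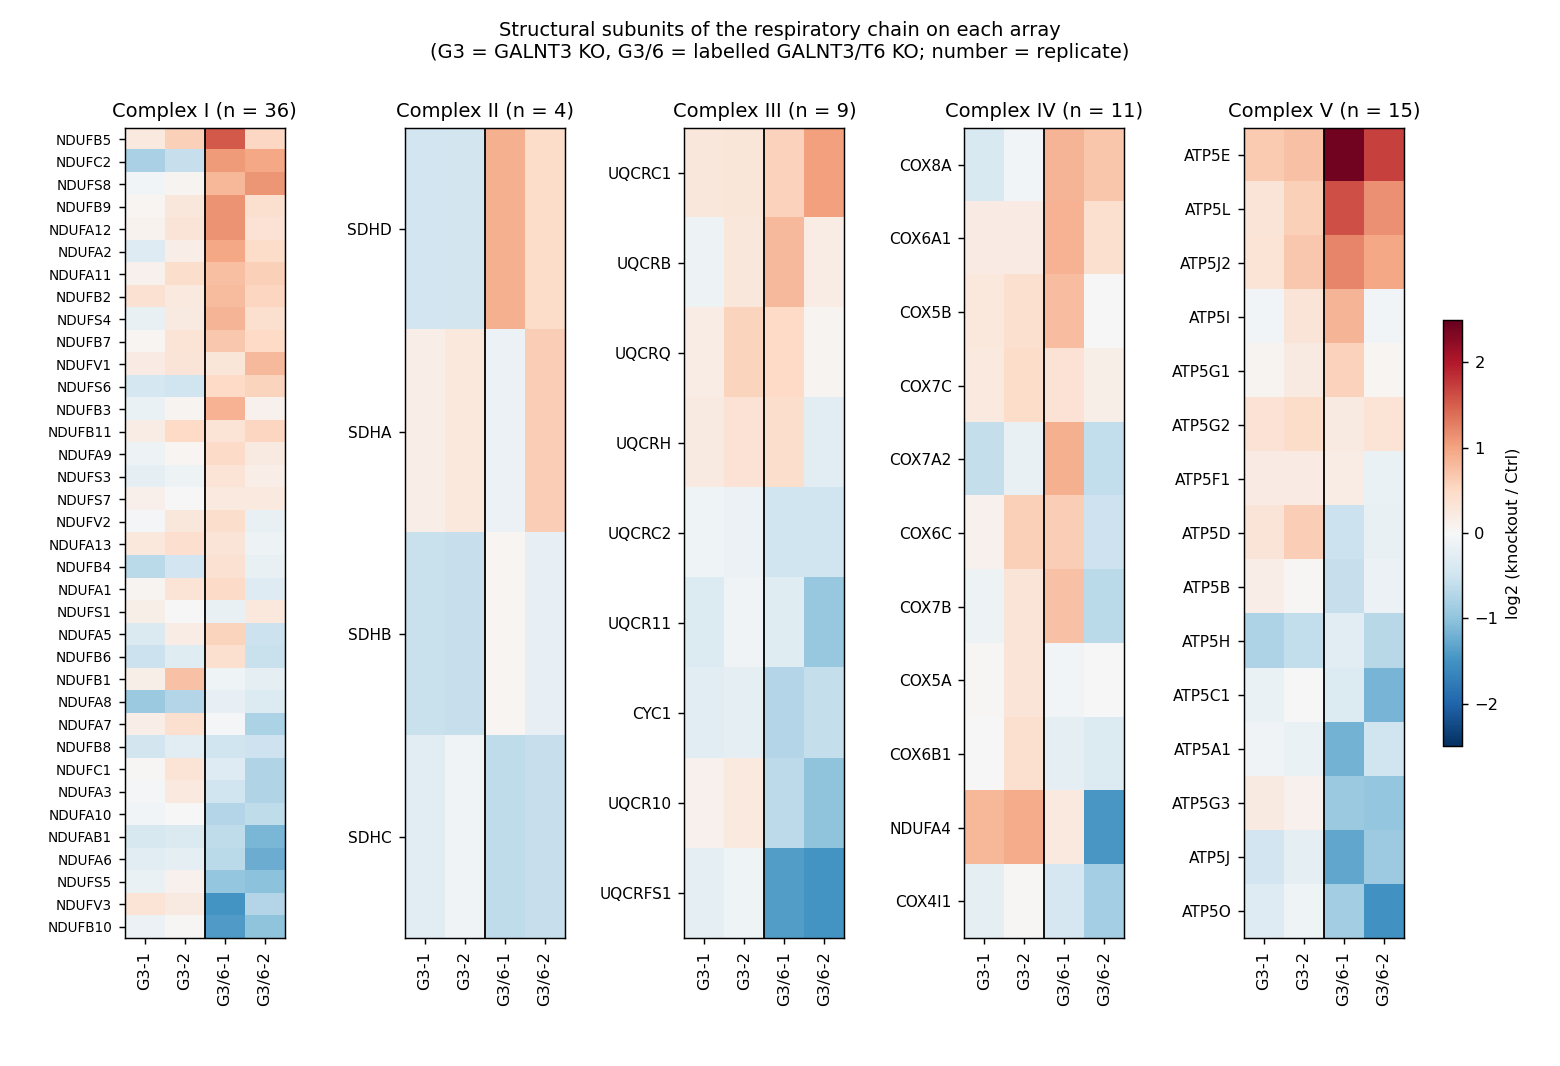
Log2 ratio of knockout over Ctrl for 75 of the 76 structural subunits (rows, gene names as on the array) on each of the 4 arrays (columns), by complex and sorted by the mean of the GALNT3/T6-labelled arrays. Red is higher and blue lower than Ctrl, and the black line parts the groups, so that the stronger colours to its right, from ATP5E at 2.41 and 1.72 to UQCRFS1 at -1.40 and -1.5, can be set against the paler GALNT3 KO columns.

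**Figure D2:**
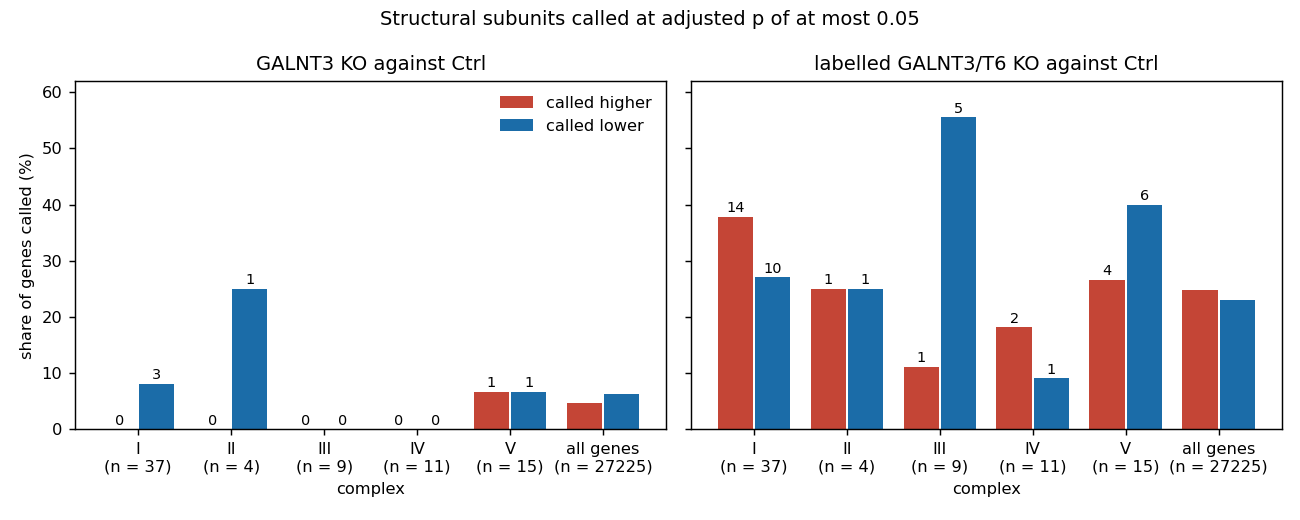
Share of structural subunits called higher (red) or lower (blue) than Ctrl at an adjusted p of at most 0.05, in percent, for each complex and for all 27225 genes tested, with the number of subunits called above each bar. In complex III 5 of 9 subunits were lower and 1 was higher on the GALNT3/T6-labelled arrays, and in complex I 14 of 37 were higher and 10 were lower. Of all genes, 24.8% were higher and 23.1% lower on these arrays.

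Complex I, with 37 structural subunits on the array, had members at both ends. On the GALNT3/T6-labelled arrays 14 were called higher and 10 lower, beside 24.8% and 23.1% of all genes. On the GALNT3 KO arrays 0 were called higher and 3 lower, beside 4.68% and 6.34% of all genes. Most of the 7 core subunits carry the flavin or iron-sulfur clusters. On the GALNT3/T6-labelled arrays 2 of the 7 were called higher, NDUFS8 and NDUFV1, and 1 was called lower. NDUFS8, an iron-sulfur protein that passes electrons towards coenzyme Q, read -0.06 and 0.07 on the GALNT3 KO arrays and 0.84 and 1.11 on the GALNT3/T6-labelled arrays. It rose on the second pair by 0.97 ± 0.10 (SE, n = 2, adjusted p = 0.00243), and the 2 groups did not overlap. NDUFV1, which binds NADH, rose less, with 0.31 and 0.81 on those arrays and a mean of 0.56 ± 0.14 (adjusted p = 0.0308). This call was kept under 5 of 12 alternatives of the processing, of the arrays used or of the fit. These 12 are not independent. The deposited table repeats Agilent's log ratios up to rounding. Leaving out either array of the other group repeats the fit with the spread of the compared arrays alone. The other named core subunits were not called in either group: NDUFS1 had means of 0.08 and 0.03, and NDUFS7 of 0.07 and 0.24.

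The accessory subunits of complex I were split in the same way. On the GALNT3/T6-labelled arrays 12 of 30 were called higher and 9 lower, beside 24.8% and 23.1% of all genes. NDUFC2, a subunit of the membrane arm, gave -0.82 and -0.57 on the GALNT3 KO arrays and 1.06 and 0.96 on the GALNT3/T6-labelled arrays. It was lower than Ctrl on both GALNT3 KO arrays and higher on both others. Both changes were called, at -0.69 ± 0.10 (adjusted p = 0.0314) and 1.01 ± 0.10 (adjusted p = 0.00189), as was the difference of 1.70 ± 0.14 (adjusted p = 0.00232), the largest positive one of any member. Its second, dimmer probe read -0.17 and -0.03 as group means, so the size rests on the brighter probe. NDUFS6, an accessory subunit that binds zinc, turned in the same way, with -0.44 and -0.49 on the GALNT3 KO arrays and 0.49 and 0.56 on the GALNT3/T6-labelled arrays, and the difference was 0.99 ± 0.11 (adjusted p = 0.00566). NDUFB10, on the side of the membrane arm that faces the intermembrane space, had -0.14 and 0.02 on the GALNT3 KO arrays and -1.42 and -1.01 on the GALNT3/T6-labelled arrays. Its fall of 1.22 on the log2 scale (SE 0.13, adjusted p = 0.00238) was the largest of complex I, followed by NDUFV3, next to the NADH site, at -1.5 and -0.73 (mean -1.12 ± 0.20, adjusted p = 0.0105). NDUFB5 had the highest mean of complex I, 1.02 ± 0.26 (adjusted p = 0.0315), but its arrays differed widely, at 1.54 and 0.51. Its call was kept under 6 of 12 alternatives. NDUFA8, a subunit of the membrane arm, was the lowest member on the GALNT3 KO arrays, at -0.93 and -0.73 (mean -0.83 ± 0.10, adjusted p = 0.0237), and less so on the others, at -0.21 and -0.34. The difference between groups was 0.56 ± 0.14 (adjusted p = 0.0466).

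Complex II, which is also an enzyme of the TCA cycle, has 4 subunits, all encoded in the nucleus. SDHD, which anchors the complex in the membrane together with SDHC, read -0.48 and -0.46 on the GALNT3 KO arrays and 0.89 and 0.46 on the GALNT3/T6-labelled arrays. It was below Ctrl on the first pair, where it was not called, and above Ctrl on the second, where the rise was called (0.68 ± 0.13, adjusted p = 0.0126). The difference of 1.15 ± 0.18 was called as well (adjusted p = 0.0131). SDHC, its partner in the anchor, had -0.29 and -0.08 on the GALNT3 KO arrays and -0.64 and -0.59 on the GALNT3/T6-labelled arrays, and fell on the latter (mean -0.61 ± 0.09, adjusted p = 0.00654). The catalytic pair was not called on the GALNT3/T6-labelled arrays. SDHB, the iron-sulfur subunit, gave -0.55 and -0.57 on the GALNT3 KO arrays and 0.04 and -0.21 on the GALNT3/T6-labelled arrays, and was called lower on the GALNT3 KO arrays alone (-0.56 ± 0.10, adjusted p = 0.0405), with a difference between groups of 0.48 ± 0.14 that was not called (adjusted p = 0.075). SDHA, the flavoprotein, had means of 0.21 and 0.24, neither of them called.

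Complex III had more structural subunits lower than higher on the GALNT3/T6-labelled arrays. Of 9 subunits 5 were called lower (UQCRFS1, UQCR10, CYC1, UQCR11 and UQCRC2) and 1 higher (UQCRC1), with a median log2 ratio of -0.50. Over all genes tested, 23.1% were called lower and 24.8% higher, with a median of 0.03. On the GALNT3 KO arrays 0 of 9 were called in either direction by limma, 1 had an unadjusted p of at most 0.05, and the median was 0.07. Of all genes, 6.34% were called lower and 4.68% higher there. UQCRFS1, the Rieske iron-sulfur protein that takes electrons from coenzyme Q, had -0.25 and -0.11 on the GALNT3 KO arrays and -1.40 and -1.5 on the GALNT3/T6-labelled arrays. All 4 values were below 0, and the groups were far apart. Its fall of 1.45 (SE 0.09, adjusted p = 4.81e-04) was the largest of all members, its second probe read -1.63, and the difference between groups was -1.27 ± 0.12 (adjusted p = 0.00354). CYC1, cytochrome c1, which hands electrons to cytochrome c, read -0.26 and -0.23 on the GALNT3 KO arrays and -0.74 and -0.60 on the GALNT3/T6-labelled arrays. It was lower on every array and more so on the second pair (mean -0.67 ± 0.08, adjusted p = 0.00395), although the difference between groups was not called (adjusted p = 0.0679). UQCR10, a small accessory subunit, had 0.10 and 0.25 on the GALNT3 KO arrays and -0.66 and -1.0 on the GALNT3/T6-labelled arrays, and its difference of -1.01 ± 0.16 was called (adjusted p = 0.0146). UQCR11 had a mean of -0.63 ± 0.18 (adjusted p = 0.0443), but its second probe read 0.44, so its direction depends on the probe. UQCRC1, a large subunit on the matrix side, was the exception, at 0.29 and 0.30 on the GALNT3 KO arrays and 0.58 and 1.03 on the GALNT3/T6-labelled arrays. It rose by 0.80 ± 0.13 (adjusted p = 0.00835), while its partner UQCRC2 fell, with a mean of -0.50 ± 0.08 (adjusted p = 0.00765).

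Complex IV, of which 11 nuclear-encoded subunits were counted, showed the widest gap between the 2 GALNT3/T6-labelled arrays. The median of its subunits was 0.61 on replicate 1 and -0.34 on replicate 2. On these arrays 2 subunits were called higher and 1 lower, beside 24.8% and 23.1% of all genes. On the GALNT3 KO arrays 0 of 11 were called by limma, with 1 at an unadjusted p of at most 0.05. Of all genes, 4.68% were called higher and 6.34% lower there. COX8A, a small subunit, read -0.39 and -0.06 on the GALNT3 KO arrays and 0.85 and 0.69 on the GALNT3/T6-labelled arrays. It was below Ctrl in the first group and above it in the second, where it rose by 0.77 ± 0.12 (adjusted p = 0.00656), and the difference was 0.99 ± 0.16 (adjusted p = 0.0152). COX6A1 rose as well, at 0.86 and 0.40 (mean 0.63 ± 0.13, adjusted p = 0.0177). COX4I1, the widely expressed form of a regulatory subunit, had -0.23 and 0.03 on the GALNT3 KO arrays and -0.43 and -0.85 on the GALNT3/T6-labelled arrays. Its fall of 0.64 (SE 0.14) was called (adjusted p = 0.0197), but its 2 other probes read -0.10 and -0.21 there, and the call was kept under 7 of 12 alternatives. For 3 small subunits of this complex the replicates lay on opposite sides of 0 by more than 0.5 each, at 0.90 and -0.62 for COX7A2, 0.73 and -0.67 for COX7B and 0.61 and -0.51 for COX6C. The same held for NDUFA5 of complex I, at 0.55 and -0.54, and no member did so on the GALNT3 KO arrays. NDUFA4, long counted in complex I and now in complex IV, went from 0.83 and 0.93 on the GALNT3 KO arrays to 0.24 and -1.46 on the others. It had the highest mean of all members in the first group (0.88 ± 0.40), which was not called (adjusted p = 0.19) with an error that is shared over the 4 arrays and takes in the gap between the second pair. COX5A and COX6B1 had means of -0.03 and -0.28 on the GALNT3/T6-labelled arrays and were not called.

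Complex V had subunits at both ends. On the GALNT3/T6-labelled arrays 4 of its 15 structural subunits were called higher and 6 lower, beside 24.8% and 23.1% of all genes. In the catalytic F1 part, ATP5E (now ATP5F1E), the epsilon subunit of the central stalk, gave 0.65 and 0.73 on the GALNT3 KO arrays and 2.41 and 1.72 on the GALNT3/T6-labelled arrays. All 4 values lay above 0, and the second pair was higher. Its mean there of 2.07 ± 0.18, about 4.19-fold, was called (adjusted p = 0.00135), as was the difference of 1.38 ± 0.26 (adjusted p = 0.0214). Of its 2 other probes 1 read 1.39 and the other -0.25 on those arrays. The alpha and gamma subunits ATP5A1 and ATP5C1 fell, with -1.18 and -0.50 for ATP5A1 (mean -0.84 ± 0.18, adjusted p = 0.0181) and -0.35 and -1.16 for ATP5C1 (mean -0.76 ± 0.21, adjusted p = 0.0378). These calls were kept under 8 and 7 of 12 alternatives in turn. The beta subunit ATP5B, which carries the catalytic sites, was at -0.58 and -0.15 and was not called (adjusted p = 0.0731). The delta subunit ATP5D had 0.32 and 0.61 on the GALNT3 KO arrays and -0.53 and -0.19 on the GALNT3/T6-labelled arrays, on opposite sides of Ctrl, and only the difference between groups was called (-0.83 ± 0.18, adjusted p = 0.0345).

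The stalk and membrane subunits of complex V moved in both directions too. ATP5O, the subunit that ties the F1 part to the outer stalk, had -0.32 and -0.11 on the GALNT3 KO arrays and -0.87 and -1.52 on the GALNT3/T6-labelled arrays, and ATP5J, coupling factor 6 of the same stalk, had -0.48 and -0.24 on the GALNT3 KO arrays and -1.30 and -0.91 on the GALNT3/T6-labelled arrays. Both were lower on all 4 arrays, and both falls were called on the second pair, at -1.19 ± 0.18 (adjusted p = 0.00632) and -1.10 ± 0.13 (adjusted p = 0.00332). ATP5H, subunit d, was called lower in both groups, at -0.77 and -0.62 on the GALNT3 KO arrays and -0.27 and -0.70 on the GALNT3/T6-labelled arrays. Each of its calls was kept under 6 of 12 alternatives. In the membrane part, ATP5L (subunit g) read 0.33 and 0.60 on the GALNT3 KO arrays and 1.61 and 1.14 on the GALNT3/T6-labelled arrays, and ATP5J2 (subunit f) read 0.34 and 0.67 on the GALNT3 KO arrays and 1.21 and 0.97 on the GALNT3/T6-labelled arrays. Both were above Ctrl on every array and were called higher on the second pair, with means of 1.38 ± 0.15 (adjusted p = 0.00246) and 1.09 ± 0.12 (adjusted p = 0.00284). For ATP5L a dimmer probe read -0.32 there.

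Isoforms of the same subunit were called differently. The genes ATP5G1, ATP5G2 and ATP5G3 encode the same mature subunit c of the ATP synthase rotor. ATP5G3 had 0.23 and 0.11 on the GALNT3 KO arrays and -0.92 and -0.97 on the GALNT3/T6-labelled arrays, so that it was near Ctrl in one group and lower in the other, with a difference of -1.12 ± 0.12 (adjusted p = 0.00438). ATP5G2 was slightly higher in both groups, at 0.37 and 0.47 on the GALNT3 KO arrays and 0.23 and 0.34 on the GALNT3/T6-labelled arrays (adjusted p = 0.0495 and 0.0491), a direction that was lost with Agilent's own log ratios, where the means were -0.0013 and -0.11. ATP5G1 had means of 0.15 and 0.31 and was not called. COX4I2, the form of COX4 known from lung and from low oxygen, was higher on the GALNT3 KO arrays, at 0.38 and 0.71 (mean 0.55 ± 0.11, adjusted p = 0.0498), and was not called on the others (0.16). The testis form COX6B2 was called higher on the GALNT3/T6-labelled arrays (0.47 ± 0.08, adjusted p = 0.0111), but its second probe read -0.54, and the mean of both probes was -0.036. The muscle forms COX6A2 and COX7A1 had means of 0.51 and 0.35 on the GALNT3 KO arrays and of -0.11 and 0.17 on the others, and none of these was called. COX7A2L, a factor of supercomplex assembly, lay at 0.06 and 0.13. COX7B2 was well above background in Ctrl on 2 of 4 arrays and in the knockout channel on 1 of 4, and NDUFA4L2 in Ctrl on 3 of 4 and in the knockout channel on 3 of 4, so their ratios carry little signal.

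The 8 assembly factors among the members were called in 3 cases on the GALNT3/T6-labelled arrays, 1 higher and 2 lower. On the GALNT3 KO arrays 0 were called by limma, with 2 at an unadjusted p of at most 0.05. Of all genes, 24.8% were called higher and 23.1% lower on the GALNT3/T6-labelled arrays, and 4.68% and 6.34% on the GALNT3 KO arrays. NDUFAF6, needed early in the assembly of complex I, read -0.37 and -0.50 on the GALNT3 KO arrays and 1.14 and 0.54 on the GALNT3/T6-labelled arrays. It lay below Ctrl in the first group and above it in the second, with a difference of 1.28 ± 0.23 (adjusted p = 0.0196).

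The 2 clones of a group differed in a way that most structural subunits shared. On the GALNT3 KO arrays replicate 2 was above replicate 1 for 64 of 76 subunits (84.2%), and the median of replicate 1 minus replicate 2 was -0.20. On the GALNT3/T6-labelled arrays replicate 1 was above replicate 2 for 57 of 76 (75.0%), with a median of 0.26. Over all genes tested, replicate 1 was the higher one in 50.8% and 48.9%. The SD of this gap over the structural subunits was 0.17 and 0.51. The 10 genes on the array that carry names of subunits encoded in mitochondrial DNA went the same way. Replicate 2 was higher for 10 of 10 in the GALNT3 KO group and replicate 1 for 10 of 10 in the other. Their medians were 0.02 and 0.69 on the GALNT3 KO arrays and 1.03 and 0.29 on the GALNT3/T6-labelled arrays. What sets the gap between clones was not tested. All group means of these 10 genes lay above 0, but only COX1 was called on the GALNT3 KO arrays, and COX1, ND4 and ND1 on the others. The probe named COX1, after the catalytic subunit of complex IV, read 1.22 and 1.92 on the GALNT3 KO arrays and 2.36 and 2.06 on the GALNT3/T6-labelled arrays. It was higher than Ctrl on all 4 arrays, with means of 1.57 ± 0.19 (adjusted p = 0.0255) and 2.21 ± 0.19 (adjusted p = 0.00134). The array's annotation places this probe on chromosome 1, not on mitochondrial DNA, and whether it reads the mitochondrial gene was not tested.

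**Figure D3:**
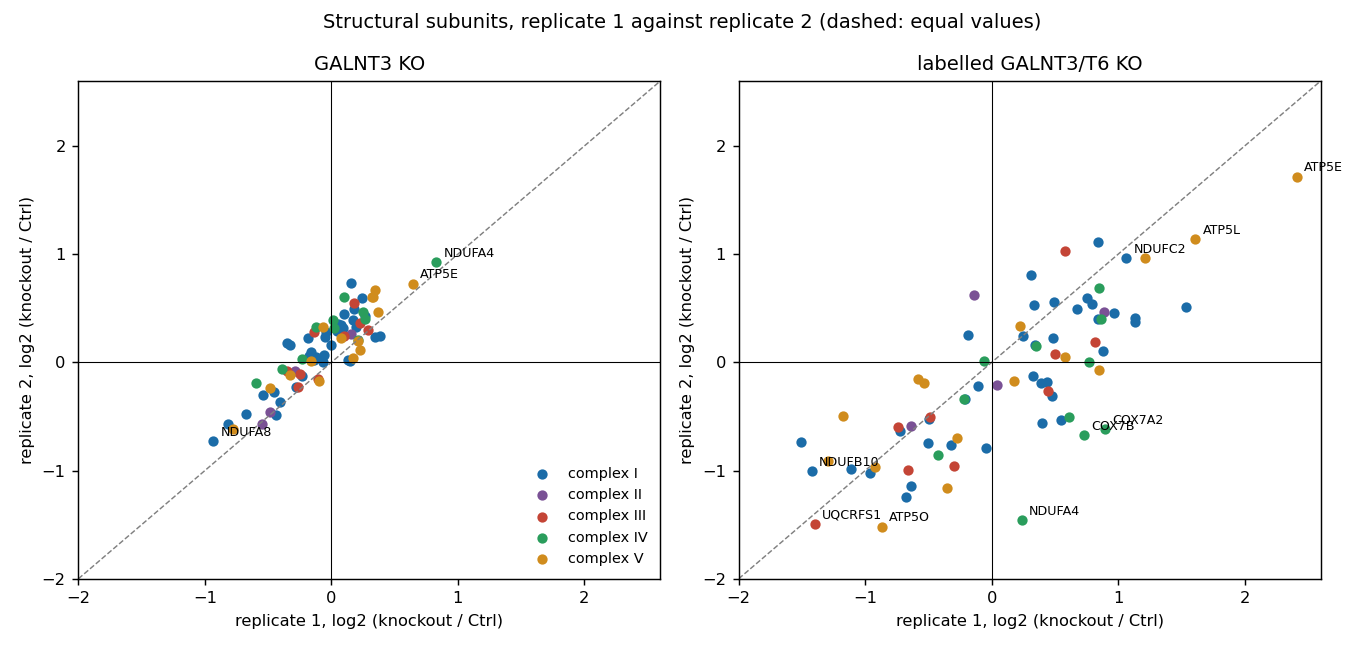
Log2 ratio of knockout over Ctrl in replicate 2 against replicate 1 for the 76 structural subunits, coloured by complex, in the GALNT3 KO group (left) and on the GALNT3/T6-labelled arrays (right). Points above the dashed line are higher in replicate 2 (64 of 76 on the left), points below it in replicate 1 (57 of 76 on the right), and COX7A2 and COX7B lie at the lower right, above 0 in one clone and below 0 in the other.

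On several chromosomes all structural subunits lay on the same side of Ctrl on the GALNT3/T6-labelled arrays. All 7 on chromosome 11 lay above 0 and 6 were called higher (ATP5L, NDUFC2, NDUFS8, COX8A, SDHD and NDUFV1), with a median of 0.77. The median of all 1485 genes tested on chromosome 11 was 0.20, and 37.5% of them were called higher and 13.1% lower. All 4 on chromosome 16 (NDUFB10, NDUFAB1, COX4I1 and UQCRC2), all 3 on chromosome 21 (ATP5O, NDUFV3 and ATP5J) and both on chromosome 22 (NDUFA6 and UQCR10) were called lower, with medians of -0.77, -1.12 and -0.90, beside -0.03, -0.08 and -0.17 for all genes of these chromosomes. Of all genes, 26.8% were called lower and 19.3% higher on chromosome 16, 27.4% and 18.9% on chromosome 21, and 39.7% and 13.0% on chromosome 22. On chromosome 19, which holds the most subunits, 2 of 10 were called higher and 3 lower, beside 16.8% and 33.8% of all genes. All subunits also lay above 0 on chromosomes 3, 5 and X, and below 0 on chromosomes 9 and 10. Of the 6 on chromosome 5, 3 were called higher and 0 lower, beside 27.4% and 20.7% of all genes. On the GALNT3 KO arrays the 7 subunits of chromosome 11 had a median of -0.18 and the 3 of chromosome 21 one of -0.22. With neighbours taken as other genes within 5 Mb, a window chosen after these values were seen, the correlation between a subunit's mean and its neighbours' median was 0.40 over the 76 subunits (Spearman 0.37) on the GALNT3/T6-labelled arrays. It was -0.19 on the GALNT3 KO arrays (Spearman -0.19). The points share arrays and in part neighbours, so this is a description.

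**Figure D4:**
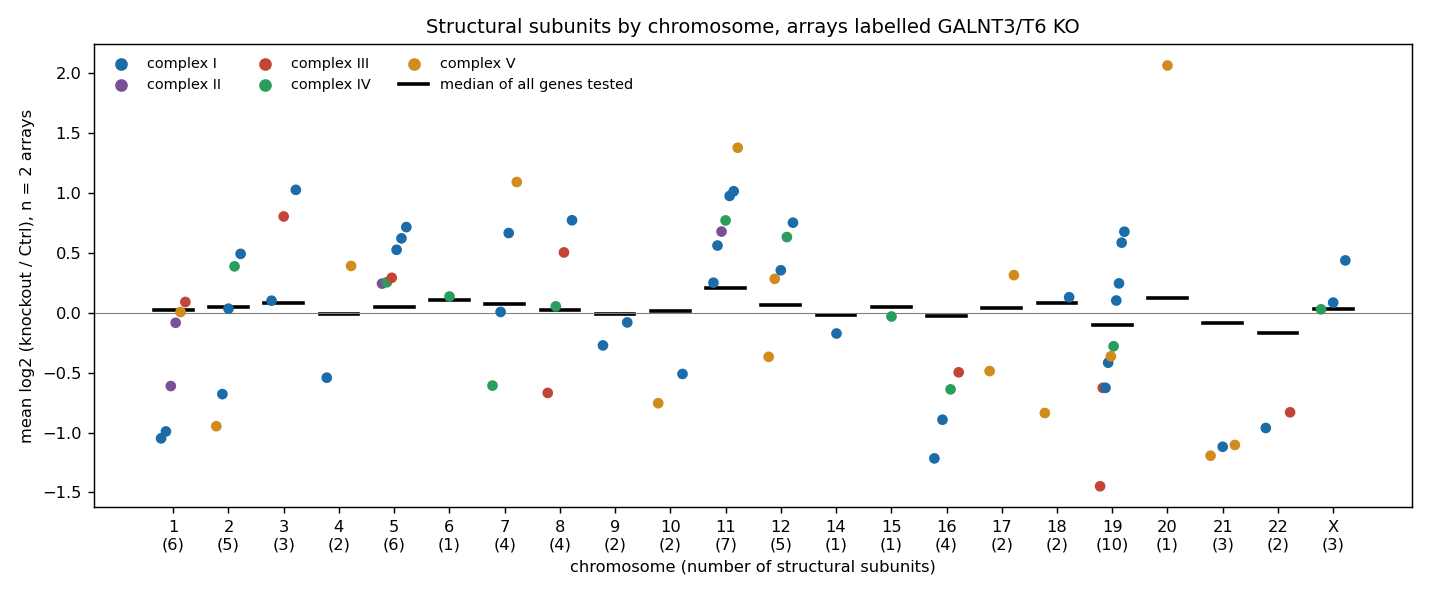
Mean log2 ratio of knockout over Ctrl on the 2 GALNT3/T6-labelled arrays for each structural subunit (points, coloured by complex), by chromosome, with the median of all genes tested on that chromosome (black bars). The 7 subunits of chromosome 11 lie above 0, and the 3 of chromosome 21, the 4 of chromosome 16 and the 2 of chromosome 22 lie below it.

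Other genes of mitochondria were read from lists set up beside the members. Their counts are to be read beside the shares of all genes, 24.8% higher and 23.1% lower on the GALNT3/T6-labelled arrays and 4.68% and 6.34% on the GALNT3 KO arrays, and no list was tested against other genes. Of 15 regulators of the respiratory chain, 2 were called higher and 5 lower on the GALNT3/T6-labelled arrays. PPARGC1B, a coactivator of mitochondrial genes, had 0.10 and -0.75 on the GALNT3 KO arrays and -2.32 and -3.11 on the GALNT3/T6-labelled arrays. It fell by 2.71 (SE 0.28, adjusted p = 0.00219), with a wide gap between the groups. MYC fell too (-1.59 ± 0.12, adjusted p = 9.88e-04), as did PPRC1 (-0.81), while GABPB1, a partner of the ETS factor GABPA, rose (0.85 ± 0.08, adjusted p = 0.00176) and TFAM, which packs and transcribes mitochondrial DNA, rose by 0.34. On the GALNT3 KO arrays only ESRRA was called, at -0.54 ± 0.11 (adjusted p = 0.0475).

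Of 39 assembly factors outside the name rule, 11 were called higher and 14 lower on the GALNT3/T6-labelled arrays, and 0 and 2 on the GALNT3 KO arrays. UQCC1 and UQCC2, which help to make cytochrome b of complex III, were among the higher ones, at 2.33 and 2.19 and 1.54 and 1.23 in turn, while 5 of 9 subunits of that complex were lower. SDHAF1, which helps to build the iron-sulfur protein of complex II, fell by 1.61 (SE 0.12, adjusted p = 7.62e-04), and LRPPRC, which stabilises mitochondrial messages, had -1.70 and -0.92 (adjusted p = 0.00719). TMEM126B, an assembly factor of complex I on chromosome 11, rose (1.92 ± 0.29, adjusted p = 0.00687).

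In the list of cytochrome c, carriers and coenzyme Q synthesis, 0 of 21 genes were called higher and 11 lower on the GALNT3/T6-labelled arrays, and 1 and 4 on the GALNT3 KO arrays. DHODH, ETFB and ETFDH, which take part in passing electrons to coenzyme Q, fell most, with means of -1.76, -1.63 and -1.24. SLC25A4, an ADP/ATP carrier, was lower on all 4 arrays, at -1.01 and -1.02 on the GALNT3 KO arrays and -1.28 and -1.16 on the GALNT3/T6-labelled arrays, and was called in both groups (adjusted p = 0.0132 and 6.38e-04). PDSS1, the first enzyme of the coenzyme Q side chain, had 0.44 and 0.56 on the GALNT3 KO arrays and -1.23 and -1.20 on the GALNT3/T6-labelled arrays, higher in the first group (adjusted p = 0.037) and lower in the second (adjusted p = 6.60e-04). COQ7, a later enzyme of that pathway, and SLC25A5 fell on the GALNT3 KO arrays (-0.98 and -0.71).

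For the TCA cycle and pyruvate dehydrogenase, 4 of 18 were higher and 5 lower on the GALNT3/T6-labelled arrays. MDH2 and IDH3B fell, with means of -1.81 and -1.21, while IDH3A, the partner of IDH3B in the same enzyme, rose by 1.07 ± 0.08 (adjusted p = 9.40e-04), together with OGDH (0.50) and FH (0.45). On the GALNT3 KO arrays OGDH alone was called (0.45). Of the 16 genes of mitochondrial import and proteases 13 were called lower and 1 higher on the GALNT3/T6-labelled arrays, with a median of -0.90 beside 0.03 for all genes. The outer membrane channel TOMM40 had -0.62 and -0.78 on the GALNT3 KO arrays and -2.26 and -1.94 on the GALNT3/T6-labelled arrays, and the inner membrane translocase TIMM17A -0.70 and -0.86 on the GALNT3 KO arrays and -1.81 and -2.28 on the GALNT3/T6-labelled arrays. Both were lower on every array and called in both groups, and 3 of 16 genes of the list, with CLPP, were lower on the GALNT3 KO arrays. LONP1, a protease of the matrix, fell by 1.72, and TOMM20 rose by 0.68.

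Of 77 genes of the mitochondrial ribosome, 15 were called higher and 24 lower on the GALNT3/T6-labelled arrays, and 1 and 7 on the GALNT3 KO arrays. MRPS33, MRPL11 and MRPL17 rose most (1.29, 1.16 and 1.04), and MRPL50, MRPS12 and MRPS31 fell most (-1.69, -1.40 and -1.34). On the GALNT3 KO arrays MRPL30 rose (0.69), and MRPL35, MRPS28 and MRPL9 were the lowest called (-0.69, -0.67 and -0.64). Hypoxia targets, genes that low oxygen turns on, were higher in 8 of 13 cases and lower in 0 on the GALNT3/T6-labelled arrays, and 1 was higher and 1 lower on the GALNT3 KO arrays. ADM read -0.17 and 0.16 on the GALNT3 KO arrays and 3.98 and 4.53 on the GALNT3/T6-labelled arrays, and LOX read 0.09 and 0.07 on the GALNT3 KO arrays and 3.61 and 3.91 on the GALNT3/T6-labelled arrays. Both were near Ctrl in the first group and far above it in the second (adjusted p = 1.80e-04 and 1.01e-04), as was NDRG1 (2.94). EGLN3 was higher in both groups, at 1.94 and 1.67 on the GALNT3 KO arrays and 1.91 and 2.25 on the GALNT3/T6-labelled arrays, and ANKRD37 was lower on the GALNT3 KO arrays (-0.96) and higher on the others (1.1). The hypoxia-linked isoform NDUFA4L2 was not called, with means of 0.13 and 0.11.

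**Figure D5:**
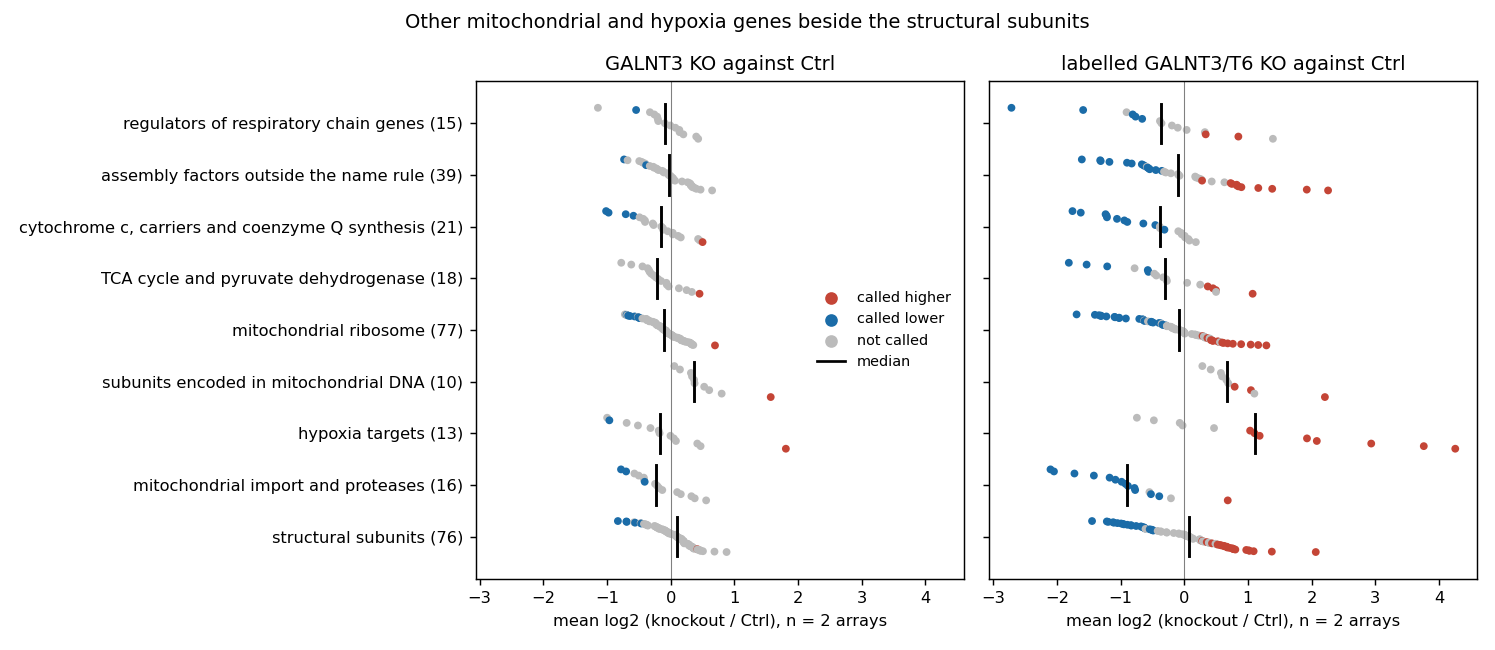
Mean log2 ratio of knockout over Ctrl (n = 2 arrays) for each gene of 8 lists and for the 76 structural subunits, in the GALNT3 KO group (left) and on the GALNT3/T6-labelled arrays (right), with called genes in red (higher) or blue (lower), others in grey and the median of each list as a black bar. The medians of the import list (-0.90) and of the hypoxia targets (1.1) lie farthest from 0 on the right, and that of the structural subunits lies at 0.07.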

How the data were processed

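RNA of 2 GALNT3 KO and 2 GALNT3/T6 KO clones (Cy5) and of Ctrl (Cy3) was hybridized on Agilent arrays, on 1 slide, in that dye order on every array per the labels. The intensities are the deposited scanner values, per the file headers from Agilent Feature Extraction (8.5.1.1 per the labels; the headers name another version). The deposited table held the log10 ratios of the same arrays. From the mean intensities, normexp background correction (offset 50) and loess within arrays gave log2 ratios of knockout over Ctrl. Outlier spots and controls were dropped, probes averaged, and the brightest probe per gene kept, provided that both arrays of 1 or both groups had it well above background in a channel. limma 3.58.1 (R 4.3.3) fitted 1 mean per group on all 4 arrays, with 2 residual degrees of freedom, and p-values were adjusted by Benjamini-Hochberg over 27225 genes. Each ratio was tested against 0, so the spread of Ctrl is left out if all arrays shared the same Ctrl RNA. Where they did not, it is mixed with the spread between clones. The number of arrays limits precision. The text names, per complex and comparison, up to 3 called members each way, set core subunits and isoforms, members with opposed replicates, and up to 3 called genes per list and direction. Some genes that this rule names are not reported here. Further members were named where counts called for it. The members and lists were chosen with earlier results of these data known.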

Additional observations from a re-analysis of the deposited data

Results flagged for a closer look

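For 21 members the difference between the 2 groups under the same contrast with Ctrl passed the test of the difference itself (limma, adjusted p of at most 0.05). Over all genes tested, 11.8% were called higher and 11.8% lower, so the members were called about as often as other genes. The log2 difference, GALNT3/T6-labelled arrays minus GALNT3 KO, was positive for 9: 1.70 for NDUFC2, 1.38 for ATP5E, 1.28 for NDUFAF6, 1.15 for SDHD, 0.99 for COX8A, 0.99 for NDUFS6, 0.97 for NDUFS8, 0.91 for ATP5L and 0.56 for NDUFA8. It was negative for 12, among them -1.41 for NDUFV3, -1.27 for UQCRFS1, -1.16 for NDUFB10, -1.12 for ATP5G3, -1.01 for UQCR10, -0.96 for NDUFS5, -0.83 for ATP5D, -0.74 for ATP5J, -0.72 for NDUFA3, -0.65 for NDUFA10 and -0.55 for ATP5SL. For NDUFC2, ATP5E and ATP5L a dimmer probe lay near or below 0 on the GALNT3/T6-labelled arrays, as given above. Groups of 2 clones are too small for a check of single arrays that stand apart.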

How the results depend on the processing

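With 2 clones a group, the counts moved with the arrays that set the spread. The medians of the members, 0.09, 0.07 and -0.05 in the 3 comparisons, were small beside the gap between arrays and had no stable sign. With Agilent's log ratios they were -0.031, -0.12 and -0.14, and with the deposited table -0.031, -0.12 and -0.14. For GALNT3 KO against Ctrl (2 higher, 5 lower) median centring gave 4 higher, both Agilent's log ratios and the deposited table gave 0 higher and 1 lower, the spread of the compared arrays alone gave 22 and 17, the unadjusted p with 1.5-fold gave 1 higher, and structural subunits alone gave 1 higher. Leaving out a replicate gave 0 to 22 higher and 0 to 17 lower. For GALNT3/T6 KO against Ctrl (24 and 27), Agilent's log ratios and the deposited table gave 12 higher, the spread of the compared arrays alone 11 higher, and leaving out a replicate 11 to 37 higher and 18 to 37 lower. For the difference between groups (9 and 12), median centring gave 14 and 6, and leaving out a replicate 1 to 27 higher and 0 to 26 lower. A left-out replicate leaves a lone array that is assumed to vary like the other group. For a group against Ctrl, leaving out an array of the other group is the same fit as the spread of the compared arrays alone. The deposited table likewise repeats Agilent's log ratios up to rounding. The share of all genes called also moved with a left-out replicate, with Agilent's log ratios and with the spread of the compared arrays alone. The clone numbers are shared between groups, but nothing says that the same number marks related clones. With the number as a replicate block 0 members were called higher and 0 lower in GALNT3 KO, 17 and 23 in GALNT3/T6 KO and 7 and 9 in the difference. Deviations of same-numbered clones correlated at -0.24 over all genes, and a crossed replicate block, chosen after seeing the data, gave 4 and 7, 26 and 29, and 13 and 15. ATP5G2 reversed with Agilent's log ratios and with the deposited table, to -0.0013 in GALNT3 KO and -0.11 in GALNT3/T6 KO in both cases, and COX6B2 with the mean of its probes, to -0.036. The causes were not tested.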
